A study of Mus musculus with 40 samples.

Results

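Taurine synthesis and bile acid conjugation were followed in mouse liver through 5 genes, Cdo1, Csad, Slc6a6, Slc27a5 and Baat, out of 40239 genes that were counted. The genes were chosen by name with their normalized counts per mouse in the 8 groups and their contrasts within each genotype in view, so those same values are given here as a description, and counts of them past a threshold are printed without anything being read from them. All 5 passed the filter on low counts, a level of 1 or more CPM (a gene's count relative to the total of its library) in 5 or more of the 40 mice, which 12942 genes passed. The levels given below are CPM with library totals scaled by TMM factors.

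Poly-A RNA was sequenced from the livers of 40 male mice at an age of 5 months, 5 mice in each of 8 groups. Wild-type (WT) mice and mice lacking PPARγ in the liver (KO) were fed control diet (control), control diet with pioglitazone (Pio), high-fat diet (HFD) or high-fat diet with pioglitazone (HFD-Pio). Pio is a thiazolidinedione that activates PPARγ. KO mice carried loxP-flanked Pparg and a Cre transgene driven by the albumin promoter, which acts in hepatocytes. WT mice were animals of strain C57BL6/J and not littermates carrying Cre or loxP alone. The paper gives C57BL6/J as the strain of the WT mice only. Total counts over the genes in both tables, with rRNA genes still included, ran from 15788242 to 49857017 per WT mouse, with a median of 23083120.5, and from 21542958 to 28334251 per KO mouse, with a median of 24703923. Because each genotype has its own table of counts, a difference in level between WT and KO mice cannot be told apart from one between tables, and levels were compared within a genotype. Mice are named by the numbers the study gave them.

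Taurine is made from cysteine. Cysteine dioxygenase, encoded by Cdo1, oxidizes cysteine to cysteine sulfinate, and cysteine sulfinate decarboxylase, encoded by Csad, turns that product into hypotaurine, which is then oxidized to taurine, while the carrier encoded by Slc6a6 takes taurine up into cells. In hepatocytes the bile acyl-CoA synthetase encoded by Slc27a5 activates bile acids with coenzyme A, and the acyltransferase encoded by Baat joins them to taurine, the main conjugate in mouse bile.

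Pparg (ENSMUSG00000000440, chromosome 6, 115360951 to 115490399 of GRCm38), the deleted gene, ranged from 5.79 CPM in WT control mouse 834 to 14.2 CPM in WT Pio mouse 845 among WT mice. Among KO mice it ranged from 3.01 CPM in KO Pio mouse 11 to 9.90 CPM in KO control mouse 5. The ranges of the genotypes overlapped, with the limit given above for levels from separate tables. Group means (± SD, n = 5) in WT mice were 8.59 ± 2.05 in control, 12.4 ± 1.24 in Pio, 11.3 ± 1.44 in HFD and 10.4 ± 1.92 CPM in HFD-Pio mice. In KO mice they were 7.36 ± 2.44 in control, 4.60 ± 1.28 in Pio, 6.29 ± 1.97 in HFD and 7.27 ± 1.79 CPM in HFD-Pio mice. Without KO Pio mouse 13 the KO Pio mean was 4.56 ± 1.48 CPM (n = 4). A gene total is a weak check of this deletion, since it may also hold reads from exons that were not deleted and from liver cells in which Cre is not active.

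KO Pio mouse 13 stood apart from every other library of its group. Its median absolute log2 difference from the other KO Pio mice over 12942 genes was 1.44. For each of those mice, measured against the rest of the group with mouse 13 included, it was 0.36 to 0.39. In mouse 13, 8369 genes (64.7%) differed by more than 1 on the log2 scale. Its difference followed base composition, with a median log2 difference of -1.44 in the fifth of genes with the lowest GC content and 1.68 in the fifth with the highest. Cdo1 (42.4% GC) differed by 1.85 and Baat (41.8%) by -2.57, among genes of like GC content with a median of -1.03. Slc27a5 (46.3%) differed by 0.85, where that median was -0.28, and Csad (50.9%) and Slc6a6 (50.8%) by 0.81 and 0.32, where it was 0.50. Its depth was ordinary, 27389358 counts with a TMM factor of 0.984. The summed level of 6 hepatocyte markers was 31852 CPM in this mouse, with Apoa1 the most abundant, against 90861 to 124895 CPM in the other KO Pio mice, where Alb led. None of the 6 hepatocyte markers was at 0 in any of the 40 mice. Sums of other lists were also low in this mouse, at 132 CPM for macrophage markers (led by Cd5l, 266 to 394 CPM in the other KO Pio mice), 88.1 CPM for endothelial markers (Stab2, 222 to 267 CPM), 138 CPM for stellate cell markers (Reln, 283 to 356 CPM) and 0.71 CPM for lymphocyte markers (Cd3e, 1.44 to 4.74 CPM). They were high at 80.5 CPM for cholangiocyte markers (Sox9, 41.3 to 50.1 CPM) and 42.2 CPM for adipocyte markers (Adrb3, 8.30 to 14.7 CPM, with 1 of 5 at 0), while red blood cell markers, at 280.1 CPM (Hba-a1), lay within the 197 to 511 CPM of the others. The part of these in the values of the mouse was not tested. The mouse was kept, since its label puts it in the group. For the 5 genes the means of its group and the fold changes that use it are given with and without it. The same fit covers all 8 groups, so this mouse also entered the standard errors of comparisons that do not use it. For HFD without Pio in WT mice that of Cdo1 was 0.28 with it and 0.19 without it. For HFD with Pio in WT mice that of Baat was 0.26 and 0.16, and that of Csad 0.32 and 0.31. Standard errors below are from the fit with all mice unless given without it.

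WT HFD mouse 829 had a share of counts on rRNA genes (0.0647%) close to that of mouse 13 (0.0617%), where the next lowest of the 40 mice was WT Pio mouse 841 (0.148%). Its median absolute log2 difference from the other mice of its group was 0.44, with 2073 genes (16.0%) beyond 1, and the median log2 difference was -0.32 in the fifth of genes with the lowest GC content and 0.31 in the fifth with the highest. In WT control mouse 832 the same measures were 0.41, 2297 genes (17.7%), 0.13 and -0.059. Mouse 829 was the highest WT HFD mouse for Cdo1 and Slc6a6 and the lowest for Csad. Marker sums in mouse 829 were 87933 CPM for hepatocytes (Alb), the lowest of its group, 89.9 CPM for cholangiocytes (Sox9) and 204 CPM for stellate cells (Dcn). They were 273 CPM for macrophages (Clec4f) and 168 CPM for endothelial cells (Stab2). Red blood cell markers were at 452 CPM (Alas2), against 752 to 1209 CPM in the other WT HFD mice. None of these markers was at 0 in mouse 829, and their part in its values was not tested. Without it, the log2 fold changes for HFD without Pio in WT mice that follow were 0.38 for Cdo1, 0.82 for Csad, -0.50 for Slc6a6, 0.21 for Slc27a5 and 0.38 for Baat.

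Cdo1 (ENSMUSG00000033022, chromosome 18, 46713193 to 46728395), the first enzyme of the route, had the highest level per length of the 5 genes in each of the 40 mice. Its level in WT mice was 401 CPM in mouse 832 and 797 to 1274 CPM in the other 4 control mice, 557 to 1164 CPM with Pio, 972 to 1768 CPM on HFD and 1009.6 to 1302 CPM on HFD-Pio. In KO mice it was 1145 to 1530.2 CPM in control, 1008 to 1449 CPM on HFD and 1154 to 1593 CPM on HFD-Pio mice. The KO Pio mice had 1237 CPM (mouse 11), 929 CPM (mouse 12), 4097 CPM (mouse 13), 1199 CPM (mouse 14) and 1219 CPM (mouse 15). Mouse 13 lay 3.58-fold above the mean of the other 4, which was 1146 ± 146 CPM. Within WT mice the means rose in the order Pio (844 ± 217), control (923 ± 338), HFD-Pio (1159 ± 115) and HFD (1312 ± 304 CPM), each within 1 SD of its neighbor, where 1 SD stands here and below for the larger SD of the groups compared. Within KO mice the order was control (1284 ± 157), HFD (1302 ± 173), HFD-Pio (1371 ± 178) and Pio (1736 ± 1326 CPM), again with every neighbor within 1 SD. Without mouse 13, which gives the Pio group its wide SD, Pio was the lowest KO group instead of the highest, still within 1 SD of control. The bulk libraries cannot tell fewer cells of a type from less RNA per cell, here and for every gene that follows.

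The log2 fold change of Cdo1 (± SE) for HFD in WT mice was 0.51 ± 0.28 without Pio and 0.46 ± 0.28 with Pio, and in each case 3 of 5 HFD mice lay above every mouse of the other group. Leaving out WT control mouse 832 lowered the first of these to 0.31, and limma gave 0.29 for it. The summed level of the 6 hepatocyte markers also differed between these groups, at 94494 ± 19628 in control, 90436 ± 24476 in Pio, 119670.3 ± 22419.8 in HFD and 104707 ± 3106 CPM in HFD-Pio mice (mean ± SD, n = 5), a step of more than 1 SD from control to HFD, led by Alb, and its part in the HFD values of this and the other 4 genes was not tested. For Pio in WT mice it was -0.13 ± 0.28 on control diet and -0.18 ± 0.28 on HFD, both smaller than their standard errors. The first turned to 0.014 without WT control mouse 831 and was -0.32 without mouse 832, and the second was -0.047 without WT HFD mouse 829. In KO mice the Pio value on control diet was 0.44 ± 0.28 with mouse 13 and -0.14 ± 0.20 without it (-0.093 under limma with all mice), so its sign rested on this library. The same mouse turned HFD with Pio from -0.34 ± 0.28 to 0.25 ± 0.20 (0.18 under limma), and without KO Pio mouse 12 that value was -0.52. Pio on HFD (0.075 ± 0.28) and HFD without Pio (0.020 ± 0.28) gave differences in KO mice far below their standard errors, and the first turned to -0.0021 when KO HFD mouse 9 was left out, the second to -0.021 when mouse 6 was.

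Csad (ENSMUSG00000023044, chromosome 15, 102176999 to 102204724), the decarboxylase, ranged 5.87-fold in WT mice, from 84.4 CPM in Pio mouse 845 to 495 CPM in HFD mouse 827, the widest range of the 5 genes in that genotype. In KO mice it ranged 7.01-fold, from 42.9 CPM in control mouse 3 to 301 CPM in Pio mouse 13, less than the 8.21-fold of Baat. Without mouse 13 the KO ranges were 5.96-fold for Csad and 1.82-fold for Baat. Its exons overlap those of Zfp740 on the other strand, and whether the counting used strand is not given in the sources used here, so reads of these genes may not be separable. In WT control mice Csad stood at 284 CPM (mouse 831), 110.1 CPM (832), 236 CPM (833), 313 CPM (834) and 254 CPM (835). In WT Pio mice it stood at 235 CPM (841), 147 CPM (842), 97.4 CPM (843), 114 CPM (844) and 84.4 CPM (845). Control mouse 832 lay among the Pio mice and Pio mouse 841 just under the other controls, and 2 of 5 Pio mice lay below every control. WT HFD mice had 426 CPM (826), 495 CPM (827), 447 CPM (828), 226 CPM (829) and 321 CPM (830). WT HFD-Pio mice had 272 CPM (836), 308 CPM (837), 300.3 CPM (838), 379 CPM (839) and 335 CPM (840), the narrowest WT group. Every HFD-Pio mouse thus lay above every Pio mouse, a comparison in which 6.49% of all tested genes had groups without overlap, while HFD and HFD-Pio mice overlapped.

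In KO control mice Csad stood at 50.4 CPM (mouse 1), 52.0 CPM (2), 42.9 CPM (3), 109 CPM (4) and 86.1 CPM (5). KO Pio mice had 95.2 CPM (11), 206 CPM (12), 301 CPM (13), 255 CPM (14) and 173 CPM (15). All but mouse 11 lay above every KO control, also when mouse 13 is left aside. KO HFD mice had 202 CPM (6), 114 CPM (7), 209.9 CPM (8), 73.8 CPM (9) and 99.5 CPM (10). KO HFD-Pio mice had 256 CPM (16), 145 CPM (17), 239 CPM (18), 164 CPM (19) and 181 CPM (20). The last of these groups shared its range with the KO Pio and KO HFD mice.

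**Figure D1:**
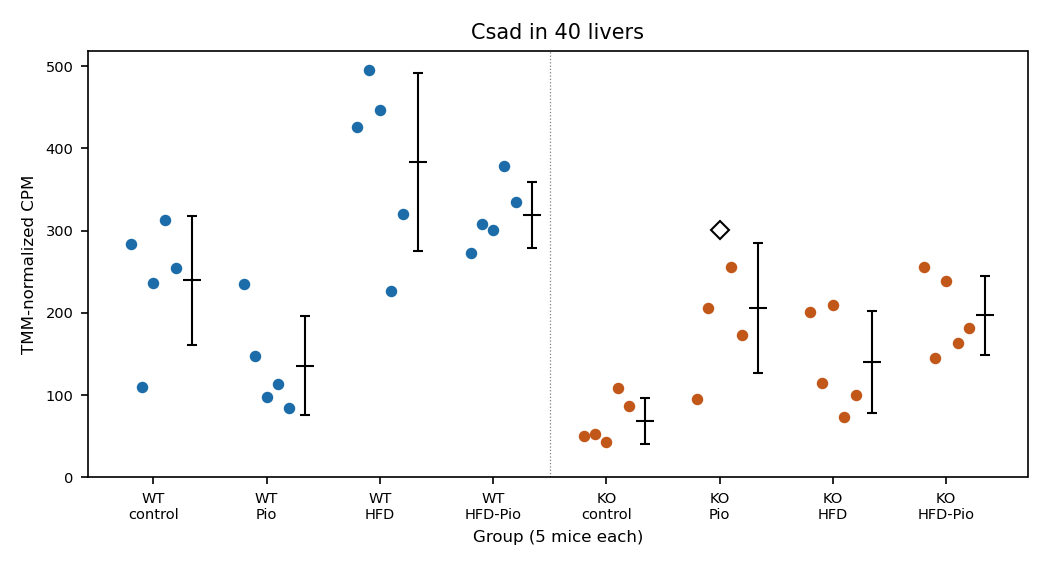
Csad level (TMM-normalized CPM, vertical axis) in each mouse of the 8 groups (horizontal axis), WT in blue and KO in orange, with mean and SD (n = 5) in black beside each group and KO Pio mouse 13 as an open diamond. The 5 WT HFD-Pio mice (272 to 379 CPM) lie above the 5 WT Pio mice (84.4 to 235 CPM), and 4 of 5 KO Pio mice lie above the KO control mice (42.9 to 109 CPM).

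The WT means of Csad rose from Pio (136 ± 60.3) through control (239 ± 78.1) and HFD-Pio (319 ± 40.3) to HFD (383 ± 108 CPM), where the upper pair lay within 1 SD of each other and the other neighbors did not. The KO means rose from control (68.1 ± 28.3) through HFD (139.8 ± 62.0) and HFD-Pio (197 ± 48.1) to Pio (206 ± 78.7, or 182 ± 67.3 CPM without mouse 13, n = 4), and only the step from control to HFD exceeded 1 SD. Without mouse 13 the Pio mean lay between those of HFD and HFD-Pio, within 1 SD of both. Control diet with Pio was therefore the lowest WT group and, with mouse 13, the highest KO group.

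For Pio on control diet, the log2 fold change of Csad was -0.82 ± 0.32 in WT mice (-1.27 under limma) and 1.60 ± 0.32 in KO mice, or 1.44 ± 0.32 without mouse 13. The KO value minus the WT value was 2.42 ± 0.45, and 2.25 ± 0.45 without mouse 13, the lowest value reached by leaving out any 1 mouse. On HFD the Pio values were -0.26 ± 0.31 in WT mice (-0.14 without HFD mouse 827 and -0.40 without HFD mouse 829) and 0.50 ± 0.32 in KO mice, with a KO minus WT difference of 0.76 ± 0.45. The Pio value on HFD minus that on control diet was 0.56 ± 0.45 in WT mice (0.85 without Pio mouse 841 and 1.05 under limma), and in KO mice -1.10 ± 0.45 with mouse 13 and -0.95 ± 0.44 without it. HFD against control diet gave 0.68 ± 0.32 in WT mice without Pio (0.49 without control mouse 832) and 1.23 ± 0.32 with Pio. In KO mice HFD gave 1.04 ± 0.32 without Pio and -0.064 ± 0.31 with Pio, which turned to 0.11 ± 0.32 without mouse 13. These comparisons share groups, so their values are not independent of each other.

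Slc6a6 (ENSMUSG00000030096, chromosome 6, 91684053 to 91759066), the taurine carrier, had the narrowest range of the 5 genes in WT mice, 2.28-fold from 105 CPM in HFD-Pio mouse 840 to 239 CPM in control mouse 831. In KO mice it ranged 1.78-fold, from 102 CPM in HFD mouse 10 to 182 CPM in control mouse 1, the narrowest range with mouse 13 but not without it, where Cdo1 ranged 1.72-fold. Its exons overlap Gm44981 on the other strand, with the same limit as for Csad. WT control mice had 239 CPM (831), 178 CPM (832), 225 CPM (833), 193 CPM (834) and 155 CPM (835). WT Pio mice had 121 CPM (841), 160.0 CPM (842), 136 CPM (843), 147 CPM (844) and 202 CPM (845). In this pair of groups 3 of 5 Pio mice lay below every control. WT HFD mice had 147 CPM (826), 117 CPM (827), 159 CPM (828), 203 CPM (829) and 136 CPM (830). WT HFD-Pio mice had 140.0 CPM (836), 138 CPM (837), 123 CPM (838), 111 CPM (839) and 105 CPM (840), overlapping the HFD and the Pio mice. KO values spanned 122 to 182 CPM in control, 131 to 181 CPM in Pio (to 163 CPM without mouse 13), 102 to 133 CPM in HFD and 109.8 to 149 CPM in HFD-Pio mice.

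The WT order of Slc6a6 ran from HFD-Pio (123 ± 15.5) through HFD (152 ± 32.1) and Pio (153 ± 31.0) to control (198 ± 34.4 CPM), and only the last step exceeded 1 SD. The KO order ran from HFD (116 ± 13.4) through HFD-Pio (128 ± 14.6) and control (145 ± 28.0) to Pio (152 ± 20.4 CPM), with each neighbor within 1 SD. Without mouse 13 the KO Pio mean was 145 ± 14.7 CPM, just below control, and the step from HFD-Pio up to Pio then exceeded 1 SD. In WT mice the log2 fold change of Slc6a6 was -0.37 ± 0.15 for Pio on control diet, -0.31 ± 0.15 for Pio on HFD (-0.18 without HFD mouse 829), -0.38 ± 0.15 for HFD without Pio and -0.31 ± 0.15 for HFD with Pio (-0.20 without Pio mouse 845 and -0.19 with library totals alone). In KO mice HFD gave -0.33 ± 0.15 without Pio and -0.25 ± 0.15 with Pio (-0.19 ± 0.15 without mouse 13). Pio in KO mice gave 0.066 ± 0.15 on control diet and 0.15 ± 0.15 on HFD, both within their standard errors with all mice. The first was 0.019 ± 0.15 without mouse 13 and from 0.010 to 0.16 without KO control mouse 5 or 1. It turned to -0.032 under limma. The second was 0.088 without KO HFD-Pio mouse 17. The KO minus WT difference between the Pio values was 0.44 ± 0.22 on control diet, or 0.38 ± 0.21 without mouse 13, and 0.45 ± 0.22 on HFD.

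Slc27a5 (ENSMUSG00000030382, chromosome 7, 12988346 to 12998192), which activates bile acids, ranged 2.38-fold in WT mice, from 439 CPM in control mouse 832 to 1046 CPM in HFD mouse 828. In KO mice it ranged 2.60-fold, from 439.7 CPM in Pio mouse 12 to 1143 CPM in Pio mouse 13, and 2.09-fold without mouse 13. In WT mice the means were 691 ± 148 in control, 724 ± 183 in Pio, 813 ± 164 in HFD and 839 ± 56.5 CPM in HFD-Pio mice, in rising order and each within 1 SD of the next. In KO mice the order was Pio (747 ± 256), HFD (797 ± 55.7), HFD-Pio (815 ± 67.7) and control (875 ± 53.7 CPM), again within 1 SD from step to step. Without mouse 13 the KO Pio mean was 648 ± 147 CPM (n = 4), more than 1 SD below HFD, and 3 of the 5 KO Pio mice lay below every KO control. The log2 fold change for Pio on control diet in KO mice was -0.23 ± 0.19 with mouse 13 (-0.38 under limma) and -0.41 ± 0.17 without it. It reached -0.059 when KO Pio mouse 12, the lowest of its group, was left out. HFD with Pio in KO mice gave 0.13 ± 0.19, 0.33 ± 0.17 without mouse 13 and -0.030 without mouse 12. In WT mice HFD gave 0.24 ± 0.19 without Pio (0.10 without control mouse 832, 0.11 without HFD mouse 828, 0.080 under limma and 0.097 with library totals alone) and 0.21 ± 0.19 with Pio (0.075 without Pio mouse 845 and 0.33 without Pio mouse 841). The Pio values in WT mice, 0.067 ± 0.19 and 0.044 ± 0.19, were smaller than their standard errors, and neither sign held (-0.057 without control mouse 832 and -0.022 without HFD mouse 826).

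Baat (ENSMUSG00000039653, chromosome 4, 49489422 to 49506557), the conjugating enzyme, ranged from 73.8 to 186 CPM in WT mice and from 32.1 to 263 CPM in KO mice. KO Pio mice had 179.7 CPM (11), 145 CPM (12), 32.1 CPM (13), 247 CPM (14) and 206 CPM (15). The other 4 averaged 194 ± 43.0 CPM, 6.05-fold above mouse 13. In that mouse Baat was thus low where Cdo1 was high. WT means rose from Pio (115 ± 32.7) and control (124 ± 30.6) to HFD-Pio (162 ± 15.5) and HFD (162 ± 15.3 CPM), and only the step from control to HFD-Pio exceeded 1 SD. KO means were 162 ± 81.5 in Pio, 224 ± 35.7 in HFD, 230.3 ± 20.5 in control and 231 ± 21.4 CPM in HFD-Pio mice, each within 1 SD of the next, in an order that was the same without mouse 13.

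The log2 fold change of Baat for HFD in WT mice was 0.39 ± 0.26 without Pio (0.26 without control mouse 832, 0.23 under limma and 0.26 with library totals alone), with 4 of 5 HFD mice above every control. It was 0.49 ± 0.26 with Pio, with 3 of 5 HFD-Pio mice above every Pio mouse. Pio in WT mice gave -0.11 ± 0.26 on control diet (0.019 without Pio mouse 845) and -0.0030 ± 0.26 on HFD, both smaller than their standard errors, and the second was above 0 in all 6 alternative settings that kept every mouse. In KO mice Pio on control diet gave -0.51 ± 0.26 with mouse 13 (-0.21 under limma) and -0.23 ± 0.17 without it, and 4 of 5 Pio mice, mouse 13 among them, lay below every control. HFD with Pio in KO mice gave 0.51 ± 0.26 (0.18 under limma), or 0.25 ± 0.17 without mouse 13. The remaining values in KO mice were 0.044 ± 0.26 for Pio on HFD and -0.037 ± 0.26 for HFD without Pio, which turned to -0.052 and 0.057 without KO HFD mouse 9.

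**Figure D2:**
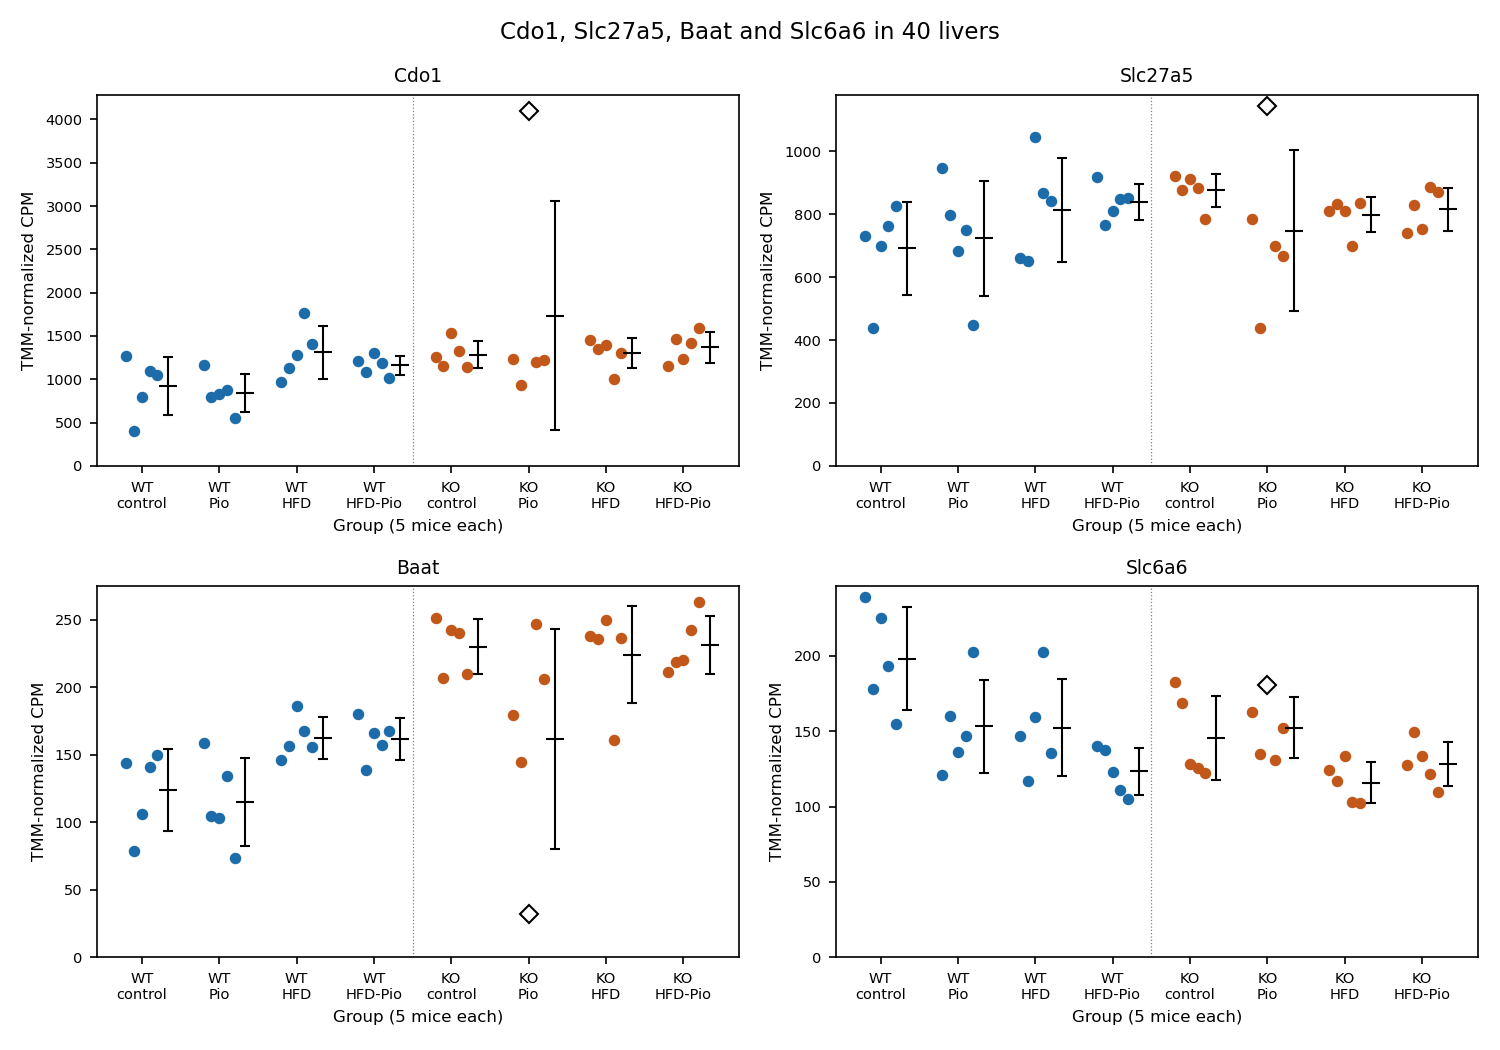
Levels of Cdo1, Slc27a5, Baat and Slc6a6 (TMM-normalized CPM, vertical axes) in each mouse of the 8 groups (horizontal axes), WT in blue and KO in orange, with mean and SD (n = 5) in black beside each group and KO Pio mouse 13 as an open diamond. In KO Pio mice, mouse 13 is the highest for Cdo1 (4097 CPM) and the lowest for Baat (32.1 CPM).

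**Figure D3:**
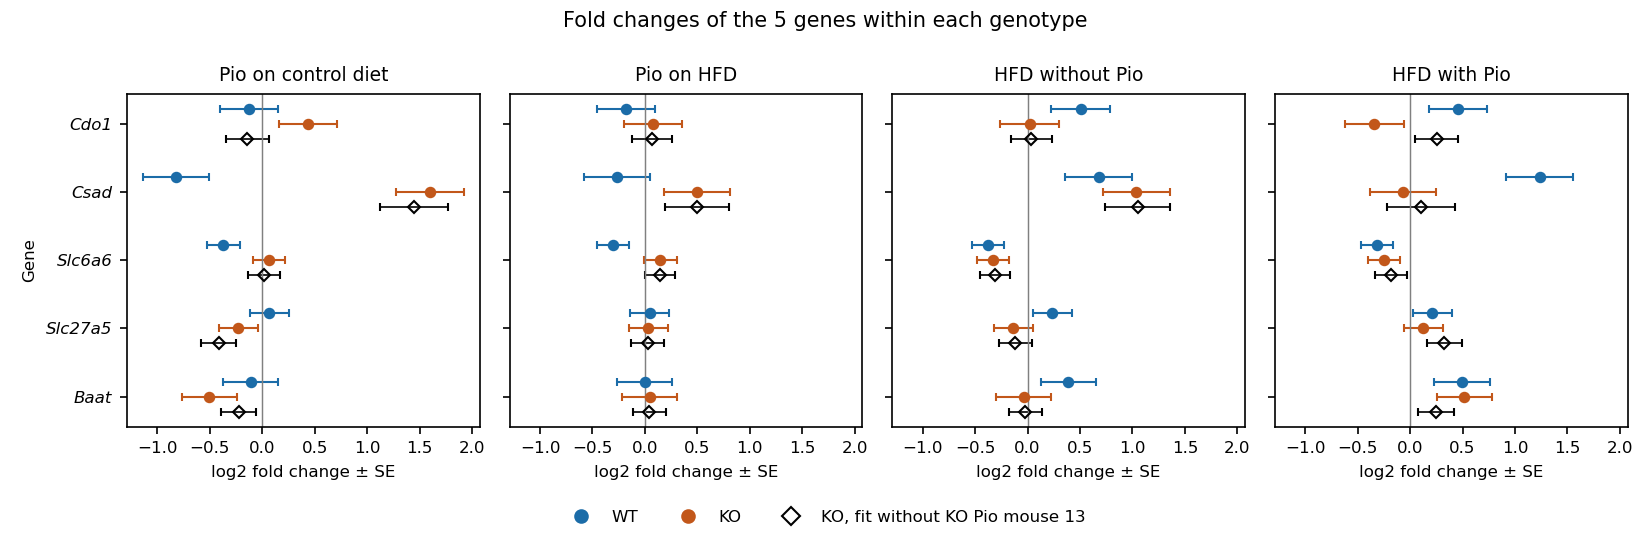
Log2 fold change (horizontal axes, with standard errors as bars) of the 5 genes (vertical axis) for Pio on each diet and for HFD without and with Pio, WT in blue, KO in orange, and KO in the fit without KO Pio mouse 13 as open diamonds. For Pio on control diet Csad is at -0.82 in WT and 1.60 in KO mice, and the KO value of Cdo1 moves from 0.44 to -0.14 without mouse 13.

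Compared per length, as CPM per kilobase of exon, Cdo1 was above Slc27a5, and Slc27a5 above each of the other 3 genes, in all 40 mice. The full order Cdo1, Slc27a5, Baat, Csad, Slc6a6 held in 26 of 40 mice. Csad was above Baat in 10 mice and below Slc6a6 in 4. The median level per length over the 40 mice was 733 for Cdo1, 332 for Slc27a5, 86.4 for Baat, 54.3 for Csad and 16.1 for Slc6a6.

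Over the 20 WT mice, levels of Cdo1 and Baat had a Spearman's rho of 0.79, Baat and Slc27a5 of 0.81, and Cdo1 and Slc27a5 of 0.66. Over the 20 KO mice the same pairs gave 0.44, 0.40 and 0.71, and without mouse 13 they gave 0.68, 0.63 and 0.66. Csad and Cdo1 gave 0.51 in WT mice and 0.096 in KO mice (-0.054 without mouse 13), Csad and Baat 0.61 and -0.051 (0.11), and Csad and Slc27a5 0.28 and -0.31 (-0.53). Slc6a6 gave values from -0.43 to -0.21 with the other 4 genes in WT mice, and from -0.28 to 0.099 in KO mice (-0.19 to -0.044 without mouse 13). These are descriptions over mice that share groups and normalization. By the lower of the rho values in the 20 WT and the 20 KO mice, over 9276 candidate genes, the genes most like Csad were Dhx16 (0.64), Lrit1 (0.63) and Ostf1 (0.59), a weaker likeness than that found for the other 4 genes. For Cdo1 they were Fcgrt (0.79), Abhd16a (0.79) and Prodh2 (0.78), and for Slc6a6 Vat1 (0.76), Tmem184b (0.74) and Arhgef16 (0.73). For Slc27a5 they were Bphl (0.83), Prodh2 (0.83) and Bckdha (0.82), and for Baat Apoh (0.81), Fam234a (0.79) and Sord (0.79). For the same genes without mouse 13 the measure lay between 0.58 and 0.60 for Csad and between 0.72 and 0.83 for the other 4 genes.

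WT control mouse 832, WT Pio mouse 845 and KO HFD mouse 9 were each the lowest of their group for Csad, Cdo1, Baat (78.7, 73.8 and 161 CPM) and Slc27a5, and WT Pio mouse 841 was the highest of its group for these 4 genes. Summed over 6 markers each, hepatocyte markers stood at 70688 CPM in mouse 832, 69629 CPM in mouse 845, 64010 CPM in mouse 9 and 71484 CPM in mouse 841, led by Alb. Cholangiocyte markers stood at 110.4, 61.2, 116 and 48.9 CPM in the same order, led by Spp1 or, in mouse 845, by Sox9, and stellate cell markers at 482, 364, 475 and 194 CPM, led by Dcn. Macrophage markers (Cd5l) stood at 282, 329, 686 and 134 CPM and endothelial markers (Stab2) at 186, 260.2, 296 and 112 CPM, where mouse 9 had the highest sums of the 40 mice and mouse 841 the lowest apart from mouse 13. Red blood cell markers (5 genes, led by Hbb-bs) stood at 302, 402, 438 and 695 CPM in the same order. No marker of these lists was at 0 in any of the 4 mice, and their part in the result was not tested.

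Counts of the 5 genes past an adjusted p of 0.05 (Benjamini-Hochberg adjustment of p values from edgeR's quasi-likelihood test) are given beside the share of all tested genes, and nothing is read from them, since these contrasts were in view when the genes were chosen. For HFD with Pio in WT mice the count was 1, Csad, beside 1.22% of all genes, and 2, Csad and Baat, beside 8.68% without mouse 13. For Pio on control diet in KO mice it was 1, Csad, beside 9.01%, and 1 beside 0.512% without mouse 13. For the KO minus WT difference of the Pio values on control diet it was 1, Csad, beside 7.87%, and 1 beside 5.78% without mouse 13. DESeq2 and limma counted 1 and 3 of the 5 genes in the first of these comparisons, 1 and 2 in the second and 1 and 1 in the third. Here and below, every share of genes called is edgeR's. No share is given for DESeq2, limma or an unadjusted p, so their counts have none to be set beside.

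In the other 9 comparisons edgeR's count was 0 of 5, with and without mouse 13. The percentages in brackets below stand beside that count of 0 alone, and the other counts have no matching share. The genes at an unadjusted p under 0.05, and the counts by DESeq2 and by limma at an adjusted p of 0.05, were 2, 0 and 2 for Pio on control diet in WT mice (3.91% of all genes past edgeR's threshold, 15.6% without mouse 13). They were 0, 0 and 0 for Pio on HFD in WT mice (1.08% and 11.6%) and 2, 0 and 0 for HFD without Pio in WT mice (1.31% and 6.55%). In KO mice they were 0, 0 and 0 for Pio on HFD (0.0155% and 0%), 2, 0 and 2 for HFD without Pio (0.185% and 0.388%) and 0, 0 and 0 for HFD with Pio (4.96% and 0.0931%). For the KO minus WT difference on HFD they were 1, 0 and 0 (0.0927% and 0.163%). For the difference of the Pio values between diets they were 0, 0 and 0 in WT mice (0.0773% and 5.25%) and 1, 0 and 0 in KO mice (0% and 0%).

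Over the 8 comparisons of a pair of groups that differ in diet or in Pio alone, groups without any overlap were found for 1 of the 5 genes, Csad, for HFD with Pio in WT mice, beside 6.49% of all genes. In the other 7 of these comparisons it was 0 of 5. The share of all genes was 7.53% for Pio on control diet, 7.12% for Pio on HFD and 3.05% for HFD without Pio in WT mice. In KO mice it was 3.70%, 0.610% and 3.04% in the same order, and 2.43% for HFD with Pio.

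Of 70 other genes of taurine supply, sulfur amino acid metabolism and bile acid metabolism in 8 lists, 65 were tested, since Gadl1, Glyatl3, Slc27a6, Slc51a and Slc51b did not pass the filter. The lists were chosen with earlier results of these data known, so their counts and shares here and below are descriptions. Counts of list genes by DESeq2, by limma or at an unadjusted p have no matching share of all genes. For Pio on control diet in WT mice 8 of the 65 genes were higher and 2 lower (15.4%, beside 3.91% of all tested genes). The median log2 fold change was 0.089 over the lists against -0.022 over all tested genes. The called genes were 4 of 7 in other taurine supply, 3 of 8 in methionine metabolism, 1 of 4 acyltransferases, 1 of 14 in bile acid synthesis and 1 of 9 in bile acid transport, and 0 of 8 in other fates of cysteine, 0 of 4 in the Slc27a family and 0 of 11 regulators. Vnn1, a pantetheinase that releases cysteamine, averaged 31.5 ± 9.53 CPM in control and 111 ± 23.1 CPM in Pio mice, higher by 1.81 ± 0.36 on the log2 scale (Benjamini-Hochberg adjusted p = 0.00207, edgeR's quasi-likelihood test), with all 5 Pio mice above every control, and the numbers of mice that follow count those beyond every mouse of the other group in the same way. Cyp7a1, the rate-limiting enzyme of bile acid synthesis, rose from 10.8 ± 4.62 to 53.1 ± 17.7 CPM (2.31 ± 0.42), Bhmt, which remethylates homocysteine, from 116 ± 26.6 to 421 ± 106 CPM (1.86 ± 0.37), and the acyltransferase gene Gm4952 from 24.2 ± 9.10 to 64.3 ± 12.7 CPM (1.41 ± 0.30), each in 5 of 5 mice. Vnn3 (0.94), Fmo1 (0.84), which oxidizes hypotaurine, and Bhmt2 (0.56) were also higher in 5 of 5 mice, and the exporter gene Abcc4 (1.45) in 2 of 5. Cbs, the first enzyme of transsulfuration, was lower (-0.67 ± 0.16) in 4 of 5 mice. The other lower gene was Slc6a13, a carrier of taurine and related compounds, named after its value was seen, at 251 ± 43.7 CPM in control and 154 ± 41.1 CPM in Pio mice (-0.70 ± 0.19, in 4 of 5 mice). The count of 10 went to 21 without KO Pio mouse 13, beside 15.6% of all tested genes in that fit. It went to 5 without WT Pio mouse 845, which ended the calls of Fmo1 (0.79), Cbs (-0.56), Bhmt2 (0.59), Abcc4 (1.05) and Slc6a13 (-0.59). The call of Fmo1 was also lost without WT control mouse 832 (0.76) or 834 (0.82) or WT Pio mouse 842 (0.81). That of Bhmt2 was lost without WT control mouse 831 (0.51), 832 (0.48) or 834 (0.58) or WT Pio mouse 842 (0.52), 843 (0.54) or 844 (0.57). That of Slc6a13 was lost without any 1 of 7 mice, with the value nearest 0 without mouse 845. Scaling by library totals alone ended the calls of Fmo1 (0.68), Bhmt2 (0.40) and Abcc4 (1.10), and leaving out the filter on low counts those of Bhmt2 (0.57) and Slc6a13 (-0.68).

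For HFD without Pio in WT mice 5 of the 65 genes were higher and 1 lower (9.23%, beside 1.31% of all tested genes), with a median of 0.30 against 0.0020 over all tested genes. The summed level of the 6 hepatocyte markers was also higher, at 119670 ± 22420 CPM in HFD and 94494 ± 19628 CPM in control mice. The part of these markers in the list values was not tested. Gm4952 (2.02 ± 0.31), Cyp7a1 (2.27 ± 0.42), the nuclear receptor gene Nr1i3 (1.95 ± 0.39), Bhmt (1.54 ± 0.36) and the acyl-CoA synthetase gene Slc27a2 (0.82 ± 0.17) were higher, and Got1, an aspartate aminotransferase, fell by 1.53 ± 0.30 on the log2 scale, each in 5 of 5 mice. The count of 6 went to 20 without KO Pio mouse 13, beside 6.55% of all tested genes in that fit, and to 10 without WT control mouse 831. The call of Bhmt was lost without WT HFD mouse 828 (1.47) or 829 (1.51) or WT control mouse 832 (1.54) or 833 (1.54), and that of Slc27a2 without WT HFD mouse 828 (0.73). For Pio on HFD in WT mice Vnn1 (1.34 ± 0.35) and Abcc4 (1.75 ± 0.37) were higher, both in 5 of 5 mice (3.08% of the list genes, beside 1.08% of all). Any 1 of 27 mice, left out in turn, moved this count of 2. It went to 13 for KO Pio mouse 13, beside 11.6% of all tested genes in that fit. It went to 0 for WT HFD-Pio mouse 837 and to 1 for the others. The call of Vnn1 ended when low genes were kept in (1.39) and when any 1 of 27 mice was left out, with the lowest value without WT HFD mouse 829 (1.26), and that of Abcc4 without WT HFD-Pio mouse 837 (1.60). For HFD with Pio in WT mice edgeR called 0 of 65, beside 1.22% of all genes. EdgeR's count went to 8 without KO Pio mouse 13, beside 8.68% of all tested genes in that fit, and to 3 without WT Pio mouse 841. With all mice, 17 were at an unadjusted p under 0.05, and DESeq2 called 0 and limma 20, with no matching share of all genes. The medians were 0.074 and 0.17 in these comparisons, against -0.017 and -0.0072 over all tested genes.

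For Pio on control diet in KO mice 3 of the 65 genes were higher and 4 lower with mouse 13 (10.8%, beside 9.01% of all tested genes), and 0 were called without it (beside 0.512%), with 15 at an unadjusted p under 0.05. With all mice, DESeq2 called 15 and limma 10, and the fit of KO mice alone 0. The median was -0.28 against 0.029 over all tested genes, and -0.14 against 0.011 without mouse 13. Cyp7a1 (-1.47 ± 0.40, or -1.28 without mouse 13), Nr1i3 (-1.17, or -1.08), Bhmt (-1.14, or -0.84) and Gm4952 (-1.06, or -0.81) were the lower genes, in 3, 4, 2 and 4 of 5 mice. Nr0b2, a nuclear receptor gene (1.07, or 0.69), was higher in 4 of 5 mice, while Mpst (1.00) and Slc27a1 (1.29) lay above every control in mouse 13 alone and stood at -0.0038 and -0.13 without it. All 7 calls were also lost without KO control mouse 1. In all, the call of Bhmt was lost without any 1 of 7 mice (-0.81 without KO control mouse 3), Gm4952 of 4 (-0.86 without KO control mouse 4), Cyp7a1 of 3 (-0.98 without KO control mouse 3), Nr1i3 of 27 (-0.95 without KO control mouse 4) and Nr0b2 of 5 (0.99 without KO control mouse 3). Beside mouse 13, that of Mpst was lost without any 1 of 5 mice and that of Slc27a1 of 26. Under limma the calls of Bhmt (-0.64), Mpst (0.049), Slc27a1 (0.082) and Nr1i3 (-0.81) were lost, with library totals those of Slc27a1 (1.25) and Nr1i3 (-1.17), and without a filter those of Bhmt (-1.12), Slc27a1 (1.37), Nr1i3 (-1.14) and Nr0b2 (1.13), while DESeq2 gave no adjusted p for Mpst. The count of 7 also went to 0 without KO control mouse 1, 2 without mouse 2, 1 without mouse 3 or 4 and 3 without mouse 5. It went to 17, 19 and 14 without KO Pio mouse 11, 14 or 15. For HFD with Pio in KO mice Cyp7a1 alone was higher (2.26 ± 0.41, or 2.08 without mouse 13, in 5 of 5 mice), 1.54% of the list genes beside 4.96% of all, a call lost without KO HFD-Pio mouse 20 (2.15) and in the fit of KO mice alone (2.24). That count of 1 went to 11, 6, 12 and 11 without KO Pio mouse 11, 12, 14 or 15, to 4 without KO HFD mouse 9, to 3 without WT HFD mouse 829 or WT Pio mouse 845, and to 2 without WT HFD mouse 827 or WT control mouse 831 or 832. For Pio on HFD and for HFD without Pio in KO mice edgeR called 0 of 65, beside 0.0155% and 0.185% of all genes, with 0 and 2 at an unadjusted p under 0.05, 0 and 0 by DESeq2 and 0 and 2 by limma. The medians over the lists for HFD with Pio, Pio on HFD and HFD without Pio were 0.11, 0.021 and -0.071, against -0.018, 0.00073 and -0.010 over all tested genes, and the first pair was 0.14 and -0.00081 without mouse 13.

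The Pio values on control diet differed between KO and WT mice for 12 of the 65 genes, all lower in KO (18.5%, beside 7.87% of all tested genes), and for 16 without mouse 13, 15 lower and 1 higher (24.6%, beside 5.78%). The median of these differences was -0.44 over the lists and 0.061 over all tested genes, or -0.25 and 0.021 without mouse 13. Leaving out KO HFD mouse 9 gave a count of 19, and leaving out KO Pio mouse 11 or 14 gave 20 or 21. For the same difference on HFD edgeR called 0, beside 0.0927% of all genes, with 4 at an unadjusted p under 0.05, 0 by DESeq2 and 3 by limma, and medians of -0.074 and 0.0078. Between the diets Cyp7a1 alone was called in WT mice (-3.09 ± 0.58), 1.54% of the list genes beside 0.0773% of all, with medians of -0.11 and 0.0023. Any 1 of 14 mice moved that count of 1. It went to 6 for KO Pio mouse 13, beside 5.25% of all tested genes in that fit. It went to 2 for WT Pio mouse 841 and to 0 for the others. In KO mice edgeR called 0, beside 0% of all genes, with 10 at an unadjusted p under 0.05, 0 by DESeq2 and 0 by limma, and medians of 0.29 and -0.051, or 0.18 and -0.012 without mouse 13.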

How the data were processed

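The authors aligned the reads to GRCm38 (Ensembl 76) with STAR 2.0.4b, and the deposited values are whole-number counts of uniquely aligned, unambiguous reads per gene from Subread featureCounts 1.4.5, without normalization. The 5 genes and the gene lists were chosen with earlier results of these data known. Repeated lines (598 in the KO table, 574 in the WT table, 0 with other counts) were reduced to 1 line per gene, the tables were joined, and 355 rRNA genes were removed, leaving 40239 genes. No library was removed, and in 80 pairs of mice of the same group 0 were identical.

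Counts were fitted in R 4.3.3 with edgeR 4.0.16 (TMM, robust quasi-likelihood fit, 1 mean for each of 8 groups), on the 12942 genes that reached 1 CPM in 5 mice, and genes with a Benjamini-Hochberg adjusted p up to 0.05 over all of them were called. The common dispersion was 0.085. Scripts were tested on simulated data. Alternatives were DESeq2 1.42.0, limma 3.58.1 with sample quality weights, library totals, other filters on low counts, each genotype alone, and fits that left out 1 of the 40 mice at a time. The likeness without KO Pio mouse 13 was added after seeing the data. Levels per length used exon lengths of GENCODE M21. Figures were drawn with matplotlib 3.10.9. Named list genes are up to 3 called genes of each list with the largest absolute log2 fold change in a comparison of a pair of groups. Likeness candidates had a mean of at least 5 CPM. Standard errors were derived as the absolute log2 fold change divided by the square root of the quasi-likelihood F. They hold the variation among mice and of counting, and no other source.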

Additional observations from a re-analysis of the deposited data

Results flagged for a closer look

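In 6 of 40 sets of 5 mice, 1 for each gene and group, a single mouse lay far from the other 4 by Dixon's criterion on the log2 scale. Chance meets this in about 1 in 20 independent sets, but these sets share mice, the 6 values come from 3 mice, and the levels were in view when the genes were chosen, so the number is a description. Cdo1 at 4097 CPM and Baat at 32.1 CPM in KO Pio mouse 13 were such values. Csad at 110.1 CPM and Slc27a5 at 439 CPM in WT control mouse 832 were others. In KO HFD mouse 9 they were Baat at 161 CPM and Slc27a5 at 700.1 CPM.

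The Pio effect on control diet differed between KO and WT mice (KO minus WT, log2, edgeR's interaction contrast at a Benjamini-Hochberg adjusted p of at most 0.05) for several named genes of the wider lists. These genes were named for their fold changes in comparisons of a pair of groups, among them the groups of this difference, so the difference is not independent of that choice. The difference was -2.39 for Vnn1, -1.33 for Vnn3, -1.32 for Fmo1 and -3.00 for Bhmt. It was -2.46 for Gm4952, -3.77 for Cyp7a1 and -2.08 for Nr1i3. Each of these 7 calls held in all 45 other settings that gave a value, including the fit without KO Pio mouse 13. For Bhmt2 it was -0.70, a call that was lost in 27 of 45 settings, among them the fit without KO Pio mouse 13 (-0.54). That fit also called Mpst (-0.80, against 0.22 with all mice), Slc27a1 (-1.17, against 0.26) and Slc27a2 (-0.79, against -0.66). The Pio effect on HFD minus that on control diet in WT mice was -3.09 for Cyp7a1, a call lost in 14 of 46 settings, with the same limit. Without mouse 13 it was also called for Bhmt (-1.64), Bhmt2 (-0.85) and Gm4952 (-1.21).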

How the results depend on the processing

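Log2 fold changes of the 5 genes moved by more than 1 SD (the root mean square of the SDs of the groups compared, on the log2 scale and with mouse 13 in its group) in few settings. The Pio value on HFD minus that on control diet in WT mice went from 0.56 to 1.05 for Csad under limma and from 0.066 to 0.34 for Slc6a6 under library totals. With 1 mouse left out at a time, the KO minus WT difference of Cdo1 on control diet lay between -0.028 (without KO Pio mouse 13) and 0.75, and its Pio value on HFD minus that on control diet in KO mice between -0.56 and 0.21 (without mouse 13). The other 2398 such values moved by less than their own SD, which in comparisons with KO Pio is wide through mouse 13 itself. Against their size the values were less steady. Leaving out 1 mouse turned the sign of 23 of the 60 fold changes and moved a further 19 by over 1.5 times. In the fit with all mice 33 were larger than their standard error. Leaving out 1 mouse turned 3 of these, all of Cdo1 and through mouse 13, and moved a further 13. Of the 27 smaller ones it turned 20 and moved a further 6. An alternative with all mice turned or moved 14 of the 33, under limma or library totals. Of these, the KO minus WT difference on control diet under limma was 0.19 for Cdo1 and 0.034 for Baat, against 0.56 and -0.40, and the Pio value of Baat on HFD minus that on control diet in KO mice was 0.15, against 0.55.

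The count of called list genes was less stable. Counts in this paragraph have no matching share of all genes, apart from the shares of edgeR's calls given above. In WT mice it was 24 by limma and 17 with the genotype fitted alone for Pio on control diet, and for Pio on HFD 8 by limma and 1 without a filter. For HFD without Pio in WT mice it was 12 by DESeq2, 13 by limma and 12 with the genotype alone, and for HFD with Pio 20 by limma and 1 with the genotype alone. In KO mice it was 15 by DESeq2, 3 without a filter and 0 with the genotype alone for Pio on control diet, and for HFD without Pio 2 by limma. For HFD with Pio in KO mice it was 7 by DESeq2, 5 by limma, 2 with the stricter filter and 0 with the genotype alone. The KO minus WT difference on control diet gave 21 by DESeq2 and 20 by limma, and on HFD 3 by limma. The difference between diets in WT mice gave 2 by DESeq2, 9 by limma, 0 with library totals and 0 without a filter. With 1 mouse left out at a time, the lowest and highest counts in WT mice were 5 and 21 for Pio on control diet, 0 and 13 for Pio on HFD, 4 and 20 for HFD without Pio and 0 and 8 for HFD with Pio. In KO mice they were 0 and 19 for Pio on control diet and 0 and 12 for HFD with Pio. They were 8 and 21 for the KO minus WT difference on control diet and 0 and 6 for the difference between diets in WT mice. The other comparisons gave 0 in every such fit.

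In the comparison of Pio on control diet in KO mice, Mpst turned to -0.0038 and Slc27a1 to -0.13 without mouse 13, and their highest values, without KO Pio mouse 12, were 1.24 and 1.59. The cause was not tested, apart from what the construction shows, that fewer mice or other genes enter the fit.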
